A study of Mus musculus with 16 samples.

Results

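Leukocyte adhesion molecules are the surface proteins by which vessel walls catch and hold circulating white blood cells. The 6 genes described here, of 43346 in the deposited table, were chosen by name: Icam1, Icam2 and Vcam1 of the immunoglobulin family, the selectins Sele and Selp, and Cd34, a sialomucin. RNA was measured by bulk sequencing in endothelial cells (ECs) sorted from mouse lungs, to compare the young and the aged lung endothelium with and without bleomycin injury. All 16 libraries came from FVB mice. They carried a Col1a1-GFP reporter and were of mixed sex, as the study's methods state. Young Sham mice (n = 5) were 2 months old and received PBS into the airways. Young Bleo mice (n = 4) of the same age received bleomycin, which damages the lung and leads to fibrosis. Aged Sham (n = 3) and Aged Bleo (n = 4) mice were 18 months old and received PBS and bleomycin. The lungs were taken about a month after treatment. The study places this time early in the resolution of fibrosis, which it describes as resolving in young mice and persisting in aged mice. The sorted cells were CD31+, CD45-, EpCAM- and GFP-, so the reporter served to remove collagen-producing cells, and arterial, venous, capillary and lymphatic ECs stayed mixed in each library. Nothing in the labels states that each library is a separate animal, although the study's methods describe individual mice, so p-values measure the spread between these libraries.

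Leukocytes leave the blood in steps. Selectins slow the cells by binding carbohydrates on them, Icam1, Icam2 and Vcam1 then hold them by binding leukocyte integrins, and the cells finally cross between or through ECs. P-selectin, the product of Selp, is stored ready-made in Weibel-Palade bodies of ECs and in granules of platelets, while E-selectin, the product of Sele, is made anew when cytokines activate the cell. In the lung, much of the slowing and arrest of leukocytes takes place in capillaries too narrow for rolling, and aerocytes are the capillary ECs specialised for gas exchange, beside the general capillary ECs.

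Total counts ranged from 20907113 to 71035301 per library. The endothelial label was borne out by its markers: all 8 core endothelial genes had at least 10 counts in every library, and their summed FPKM (fragments per kilobase of gene per mega-fragment, as deposited) was 1559 to 2877. Ptprc, which encodes CD45, was at 0.52 FPKM or lower in every library. The summed FPKM of 12 leukocyte markers was nevertheless 8.72 to 13.9 in Young Sham, 25.1 to 72.8 in Young Bleo, 14.1 to 30.8 in Aged Sham and 43.7 to 186 in Aged Bleo. One library stood apart in platelet genes: the 9 platelet markers summed to 3573 FPKM in Aged Sham 14, against 70.6 to 1001 in the other 15 libraries.

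The 6 genes differed widely in level, and their order was nearly the same in every library. By FPKM, which allows for gene length, Icam2 ranked 30th of all genes in the mean over 16 libraries (475), Icam1 ranked 165th (134), Cd34 316th (84.3), Vcam1 2190th (14.1), Selp 5459th (4.22) and Sele 10970th (0.764). That order held in 10 of 16 libraries. Cd34 stood above Icam1 in the other 6, which were the 4 Young Bleo libraries and Aged Bleo 1 and 2, and in Aged Bleo 2 Selp also stood above Vcam1. Sele rested on few reads, 77 to 876 counts per library, against 48654 to 154725 for Icam2.

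**Figure D1:**
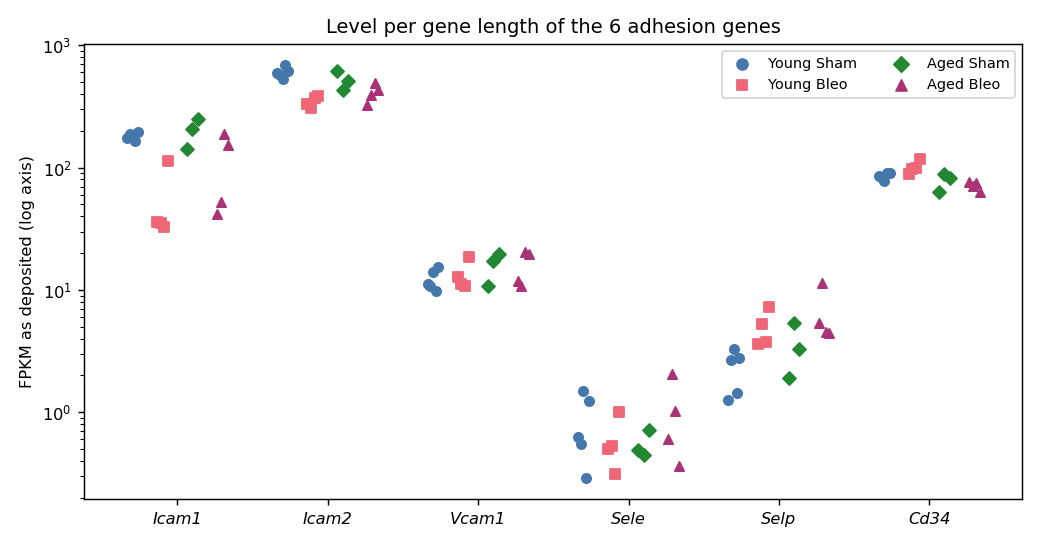
FPKM as deposited (log axis) of the 6 genes, with 1 point per library and colours and symbols for the 4 groups. Icam2 lies at the top in every library (309 to 695 FPKM) and Sele at the bottom (0.288 to 2.04 FPKM).

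The promoter sequences of Icam1, Sele and Selp are shown because Icam1 and Sele are known targets of the inflammatory factor NF-kB, and because Icam1 and Selp were called in opposite directions in Young Bleo. They are the 250 bases before the RefSeq start (build GRCm38.p6, plus strand), and 4 of the 6 genes had a window: Icam1, Sele, Selp and Cd34. Icam2 and Vcam1 had none. Capitals mark a kB-like run (GGANNTTCC on either strand) or the core letters bound by ETS factors such as ERG (CCGGAA on either strand). These motifs were chosen after the sequences were seen.
Icam1, chr9:21015690-21015939: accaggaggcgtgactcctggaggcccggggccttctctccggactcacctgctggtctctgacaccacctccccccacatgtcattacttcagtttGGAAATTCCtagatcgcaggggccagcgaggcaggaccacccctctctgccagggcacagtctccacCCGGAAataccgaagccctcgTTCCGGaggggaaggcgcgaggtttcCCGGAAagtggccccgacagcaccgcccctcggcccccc
Sele, chr1:164047984-164048233: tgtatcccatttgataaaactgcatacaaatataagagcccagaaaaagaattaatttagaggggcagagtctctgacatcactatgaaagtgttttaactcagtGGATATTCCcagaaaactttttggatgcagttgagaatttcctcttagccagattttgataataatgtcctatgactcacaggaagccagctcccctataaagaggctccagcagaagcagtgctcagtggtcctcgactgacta
Selp, chr1:164115014-164115263: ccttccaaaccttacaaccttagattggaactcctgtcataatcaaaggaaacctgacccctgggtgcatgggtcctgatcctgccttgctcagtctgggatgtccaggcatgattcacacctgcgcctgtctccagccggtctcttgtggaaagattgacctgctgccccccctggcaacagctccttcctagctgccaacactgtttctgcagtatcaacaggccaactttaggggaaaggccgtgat
The kB-like run begins 153 bases before the start of Icam1 (GGAAATTCC) and 145 bases before the start of Sele (GGATATTCC), and 3.59% of 32851 windows of the same length hold one. The ETS letters occur 3 times in the Icam1 window, 86, 65 and 39 bases before the start, and 12.0% of all windows hold at least 1. Neither run of letters occurs in the Selp or the Cd34 window. The Icam1 window is rich in G and C (65.2%, against a median of 52.4% over all windows) and the Sele window is not (40.4%). A match is a description of letters and does not show that a factor binds there.

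Each comparison between groups was tested with DESeq2 over all genes, and a gene was called at an adjusted p of 0.05 or lower with a log2 fold change of at least 0.5 in size. In Young Bleo against Young Sham, 3 of the 6 genes were called, Icam1 and Icam2 lower and Selp higher, where 14.1% of all genes tested were called, 7.69% higher and 6.44% lower. Against the same controls, 2 of 6 were called in Aged Bleo, Icam2 lower and Selp higher, beside 9.59% of all genes, 6.49% higher and 3.09% lower. None of the 6 was called in Aged Sham against Young Sham (3.29% of all genes), in Aged Bleo against Aged Sham (5.77%) or in Aged Bleo against Young Bleo (1.02%). In these 3 comparisons edgeR's quasi-likelihood test also called none of the 6. It called only 158, 146 and 8 of 18324 genes there, so the lack of an edgeR call says little about a gene. At an unadjusted p under 0.05 DESeq2 gave 1 (Vcam1), 2 (Icam1 and Icam2) and 2 (Icam1 and Cd34) of the 6 in these comparisons. In Aged Sham against Young Sham the log2 fold changes ran from -0.48 for Sele to 0.77 for Selp. The median log2 fold change over the 6 genes was -0.23 in Young Bleo and 0.03 in Aged Bleo against Young Sham, with medians over all genes of 0.01 and 0.02. Both of these comparisons use the same 5 Young Sham libraries, and Aged Bleo differs from Young Sham in age as well as in treatment.

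**Figure D2:**
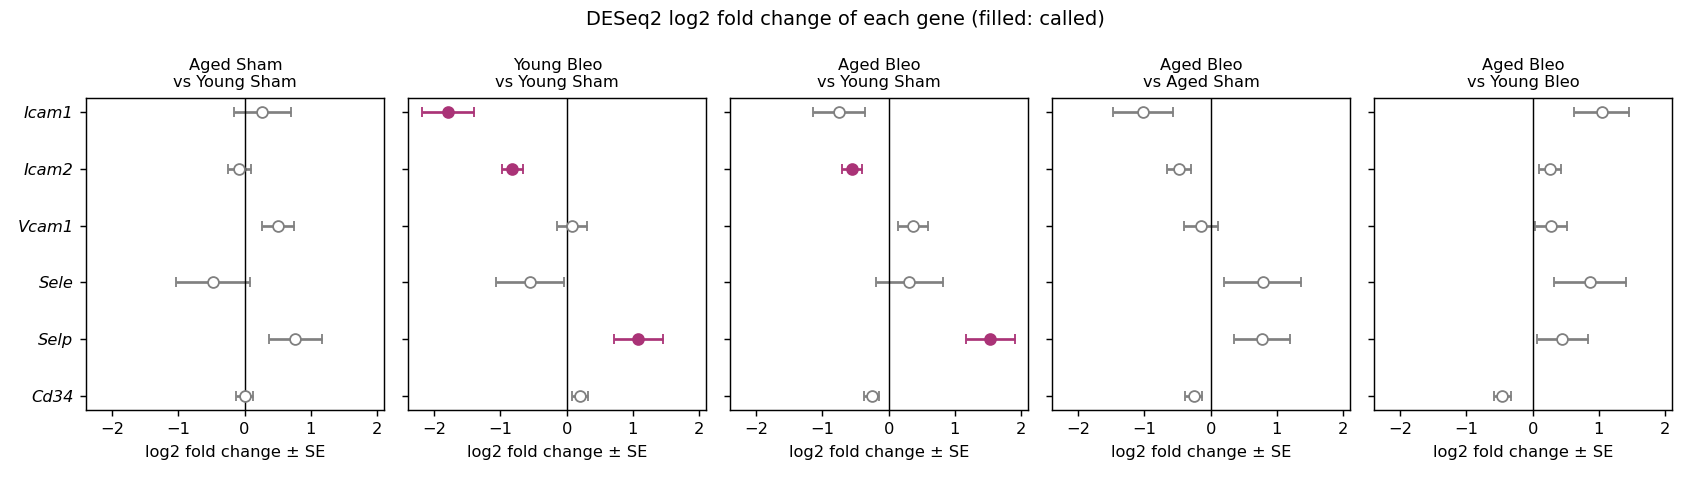
DESeq2 log2 fold change of each gene (x axis, bars are ± SE) in the 5 comparisons between groups, with filled symbols for called genes. Icam1 and Icam2 lie to the left of 0 and Selp to the right in Young Bleo against Young Sham (-1.79, -0.82 and 1.09).

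Icam1 (chromosome 9, 21015960 to 21028797, plus strand, mm10, protein-coding) binds the leukocyte integrins LFA-1 and Mac-1 and is the main endothelial partner for firm arrest. Its FPKM was 174, 187, 182, 165 and 194 in the 5 Young Sham libraries and 36.2, 35.5, 32.6 and 113 in the 4 Young Bleo libraries. Every Young Bleo library lay below every Young Sham library, and 3 of the 4 lay close together, with Young Bleo 20 well above them. Icam1 fell by 1.79 on the log2 scale in Young Bleo (SE 0.397, DESeq2 adjusted p = 0.000202, edgeR adjusted p = 0.0155), which is 3.46-fold lower. Without Young Bleo 20 it was 5.18-fold lower.

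In the aged mice, Icam1 was at 142, 208 and 249 FPKM in Aged Sham and at 41.8, 52.6, 187 and 152 FPKM in Aged Bleo. The Aged Bleo libraries were split: 1 and 2 lay near the low Young Bleo libraries, and 3 and 5 lay within the Aged Sham range of FPKM. In normalized counts Aged Bleo 5 (38279) lay below the lowest Aged Sham library (42636). The log2 fold change of Icam1 in Aged Bleo was -0.75 against Young Sham (SE 0.397, DESeq2 adjusted p = 0.248) and -1.02 against Aged Sham (SE 0.452, DESeq2 adjusted p = 0.180), and neither passed the test. Without Aged Bleo 3 both passed, at -1.13 (DESeq2 adjusted p = 0.0405) and -1.40 (DESeq2 adjusted p = 0.0267). In 15 of the 16 fits with 1 library left out neither passed. The weakest values with 1 library left out were -0.48 against Young Sham and -0.75 against Aged Sham.

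Between the injured groups, the log2 fold change of Icam1 in Aged Bleo against Young Bleo was 1.04 (SE 0.418, DESeq2 adjusted p = 0.270). It passed the test without Young Bleo 20, at 1.63 (DESeq2 adjusted p = 0.00188). In 15 of the 16 fits with 1 library left out it did not pass, and the lowest value was 0.66. The difference between the bleomycin response in aged and in young mice was itself tested as an interaction, and was 0.77 for Icam1 (95% interval -0.40 to 1.95, DESeq2 adjusted p = 0.791). None of the 6 genes was called in that test by DESeq2, which called 0.382% of all genes, or by edgeR, which called 1 of 18324. With so few calls, the lack of one by edgeR says little about a gene. By DESeq2 1 of the 6 (Cd34, at -0.46) had an unadjusted p under 0.05.

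In the injured groups the libraries low in Icam1 were also low in summed aerocyte markers. The sham libraries did not show this for the sum. The 6 aerocyte markers (Car4, Ednrb, Apln, Tbx2, Fibin and Chst1) summed to 1465 to 1961 FPKM in Young Sham and 1123 to 1773 in Aged Sham. In Young Bleo they summed to 198, 269, 385 and 910 FPKM in libraries 17 to 20, and in Aged Bleo to 185, 331, 1239 and 964 FPKM in libraries 1, 2, 3 and 5. The libraries with the lowest Icam1 in the injured groups (Young Bleo 17 to 19, Aged Bleo 1 and 2) were thus those with the lowest aerocyte sums. Among the sham libraries, Young Sham 24 had the highest sum and the lowest Icam1 of its group (1961 and 165 FPKM). Aged Sham 14 had the lowest sum (1123 FPKM) with Icam1 at 208 FPKM. Most of the sum in these libraries was Car4, at 1552 FPKM in Young Sham 24 and 807 FPKM in Aged Sham 14. All 6 aerocyte markers were called lower in Young Bleo against Young Sham by DESeq2 and by edgeR, with a median log2 fold change of -2.03, and in Aged Bleo against Young Sham 2 of 6 were called lower by DESeq2 and 0 by edgeR. Ednrb, the endothelin receptor type B, and Car4 were singled out after their values were seen. Ednrb was at 110 to 144 FPKM in Young Sham, at 7.83 to 9.47 FPKM in Young Bleo 17 to 19 and at 62.3 FPKM in Young Bleo 20. In Aged Sham 13, 14 and 15 Ednrb was at 59.7, 61.8 and 117 FPKM, in the order of Icam1. Apln (59.0, 59.9 and 77.4 FPKM) and Chst1 (39.7, 41.5 and 64.4 FPKM) also had that order in these libraries. Car4 (1182, 807 and 1321 FPKM), Tbx2 (120, 117 and 165 FPKM) and Fibin (21.2, 35.5 and 28.5 FPKM) did not. Young Bleo 17 to 19 and Aged Bleo 1 and 2 also had the highest leukocyte and arterial marker sums of their groups. In Young Bleo 17 to 20 these were 72.8, 64.7, 45.5 and 25.1 FPKM (leukocyte) and 482, 519, 417 and 308 FPKM (arterial). In Aged Bleo 1, 2, 3 and 5 they were 186, 139, 43.7 and 49.1 FPKM and 521, 412, 202 and 227 FPKM. In bulk samples, fewer cells of a type and less RNA per cell cannot be told apart. The part of aerocytes or of other cells in the Icam1 difference was not tested.

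Alveolar epithelium also makes Icam1. Of 8 epithelial markers, 0 were called higher and 1 lower in Young Bleo against Young Sham, by DESeq2 and by edgeR. Their sum was 58.2 to 235 FPKM in Young Sham and 143 to 394 FPKM in Young Bleo, and most of it was Sftpc, the surfactant gene of alveolar type 2 cells, at 43.4 to 216 and 133 to 378 FPKM. Ager, a marker of alveolar type 1 cells, was at 7.37 to 15.0 FPKM in Young Sham and at 2.46, 4.48, 3.71 and 8.52 FPKM in Young Bleo 17 to 20, so it was lowest in the same 3 libraries as Icam1. Sftpc and Ager were singled out after their values were seen, and the part of epithelial cells in the Icam1 difference was not tested.

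**Figure D3:**
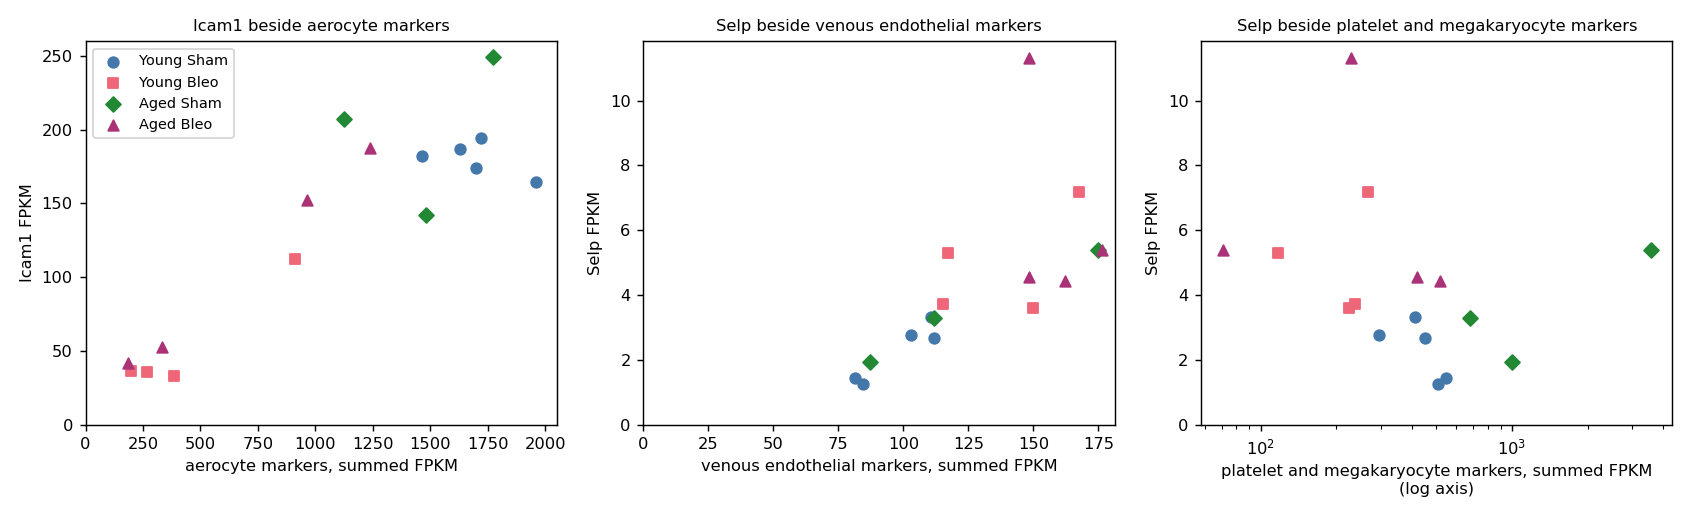
FPKM of Icam1 against the summed FPKM of 6 aerocyte markers, and of Selp against the summed FPKM of 8 venous endothelial markers and of 9 platelet markers (log axis), with 1 point per library. Icam1 and the aerocyte sum are both low in Young Bleo 17 to 19 and Aged Bleo 1 and 2, and Selp is higher in the injured groups than in Young Sham, with platelet sums of 117 to 267 FPKM in Young Bleo, 70.6 to 518 in Aged Bleo and 295 to 548 in Young Sham.

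The genes whose log2 normalized counts followed Icam1 most closely over the 16 libraries, among 13774 genes with a mean of at least 50, were Atp8a1 (Pearson r = 0.99), a phospholipid flippase, Adamtsl5 (r = 0.99) and Gata2 (r = 0.98), an endothelial and blood cell transcription factor. The points share the same libraries and the same 4 groups, so these values are a description. Of the other adhesion genes, Icam2 followed Icam1 at r = 0.79, and at r = 0.30 after each group's mean was removed. Vcam1 followed Icam1 at r = 0.49, and at r = 0.84 after the group means were removed. A long non-coding gene, Gm20603, overlaps the 3′ end of Icam1 and holds 1573 to 12776 counts, and how reads in the overlap were divided is not stated.

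Icam2 (chromosome 11, 106377656 to 106388075, minus strand, mm10, protein-coding) is carried by resting endothelium and binds the integrin LFA-1. Its FPKM was 591, 570, 535, 695 and 618 in Young Sham and 334, 309, 369 and 384 in Young Bleo. The groups did not overlap, and the Young Bleo libraries lay close together, Young Bleo 20 included. Icam2 fell by 0.82 on the log2 scale in Young Bleo (SE 0.156, DESeq2 adjusted p = 9.89e-06, edgeR adjusted p = 0.00459), which is 1.76-fold lower.

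Icam2 was at 614, 434 and 507 FPKM in Aged Sham and at 325, 392, 494 and 430 FPKM in Aged Bleo. All 4 Aged Bleo libraries lay below the Young Sham range, and the Aged Bleo and Aged Sham ranges overlapped through Aged Bleo 3. Icam2 fell by 0.55 on the log2 scale in Aged Bleo against Young Sham (SE 0.156, DESeq2 adjusted p = 0.00737, edgeR adjusted p = 0.0412). The call rested on single libraries: without Aged Bleo 1 the value was -0.45 (DESeq2 adjusted p = 0.0617), and without Young Sham 24 it was -0.47, under the fold threshold. Against Aged Sham the value was -0.47 (SE 0.178, DESeq2 adjusted p = 0.0909), and it passed the test without Aged Bleo 3 (-0.56, DESeq2 adjusted p = 0.0371) or without Aged Sham 14 (-0.59, DESeq2 adjusted p = 0.0401). In 14 of the 16 fits with 1 library left out it did not pass, and the weakest value was -0.28. The genes most like Icam2 over the 16 libraries were Klf7 (r = 0.97), a Krüppel-like transcription factor, Stard3nl (r = 0.96) and Smagp (r = 0.96).

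The core endothelial markers were also lower in sum in the injured groups. Their summed FPKM was 2529 to 2877 in Young Sham, 1669 to 2158 in Young Bleo, 2244 to 2448 in Aged Sham and 1559 to 2188 in Aged Bleo, and neither injured group overlapped Young Sham. The largest part was Cldn5, at 1451 to 1720 FPKM in Young Sham, 705 to 1032 in Young Bleo and 614 to 1129 in Aged Bleo. Kdr was at 116 to 190 FPKM in Young Sham, 26.5 to 103 in Young Bleo and 29.5 to 103 in Aged Bleo. Every injured library thus lay below Young Sham for Kdr. Erg was at 2.52 to 4.76, 5.11 to 6.13 and 4.48 to 5.25 FPKM in these groups, above Young Sham in Young Bleo. Egfl7 (357 to 438, 407 to 507 and 297 to 412 FPKM) and Pecam1 overlapped Young Sham. These genes were singled out after their values were seen. Of the 8 markers, 2 were called lower and 1 higher in Young Bleo (the same by edgeR) and 2 lower and 1 higher in Aged Bleo (edgeR 1 and 1) against Young Sham. Their part in the Icam2 difference was not tested.

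The ratio of Icam1 to Icam2 FPKM within a library does not depend on how libraries are scaled. It was 0.237 to 0.340 in Young Sham (median 0.314) and 0.0885 to 0.293 in Young Bleo (median 0.112). Young Bleo 17 to 19 lay at 0.108, 0.115 and 0.0885, below the Young Sham range, and Young Bleo 20 lay inside it. In Aged Sham the ratio was 0.232, 0.479 and 0.491, and in Aged Bleo it was 0.129, 0.134, 0.379 and 0.353. The CV of normalized counts was 66.7% for Icam1 and 9.19% for Icam2 in Young Bleo, and 64.2% and 15.8% in Aged Bleo.

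**Figure D4:**
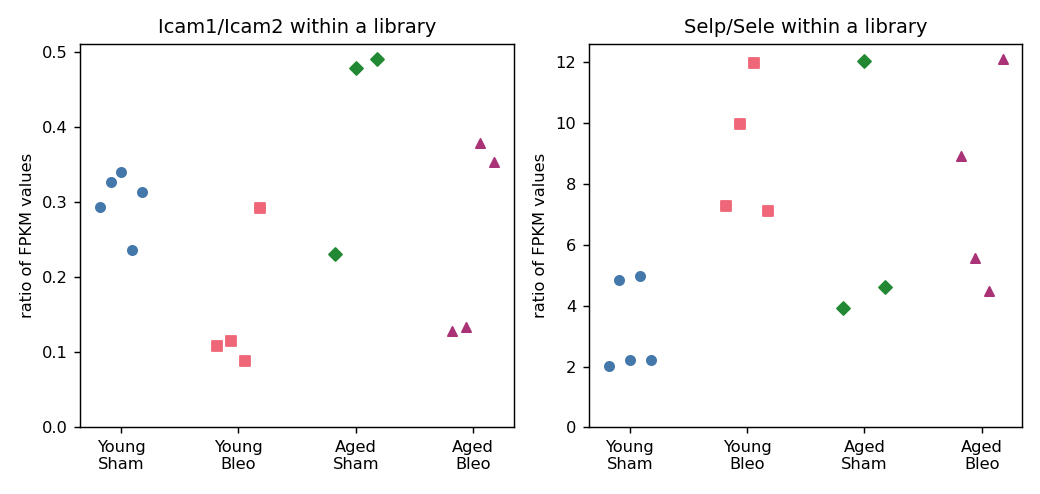
Ratio of Icam1 to Icam2 FPKM and of Selp to Sele FPKM within each library, with 1 point per library and the 4 groups on the x axis. The injured groups split on Icam1/Icam2, with 5 libraries at 0.134 or lower and 3 at 0.293 or higher.

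Vcam1 (chromosome 3, 116110020 to 116129688, minus strand, mm10, protein-coding) binds the integrin VLA-4 of monocytes and lymphocytes and is induced on activated endothelium. Its FPKM was 11.2, 10.8, 14.0, 9.86 and 15.4 in Young Sham, 12.8, 11.2, 10.8 and 18.5 in Young Bleo, 10.8, 17.4 and 19.7 in Aged Sham, and 11.9, 10.9, 20.6 and 19.8 in Aged Bleo. The 4 groups overlapped, and neighbouring group means in their order differed by less than 1 SD. Within the injured groups the libraries with high Icam1 (Young Bleo 20, Aged Bleo 3 and 5) also had the high Vcam1 values. No comparison passed the test: the log2 fold change was 0.08 in Young Bleo against Young Sham (95% interval -0.36 to 0.53), 0.36 in Aged Bleo against Young Sham (-0.08 to 0.81) and 0.50 in Aged Sham against Young Sham (0.02 to 0.98, DESeq2 adjusted p = 0.312). Pericytes and smooth muscle cells can also make Vcam1, and the sum of their 8 markers was 48.7 to 104 FPKM in Young Sham and 12.4 to 21.4 FPKM in Aged Bleo, with 8 of 8 markers called lower there by DESeq2 and by edgeR. The 6 mesothelial markers summed to 0.721 to 2.92 FPKM in Young Sham and 6.97 to 19.7 FPKM in Young Bleo. The part of these cells in the Vcam1 values was not tested. The genes most like Vcam1 were Setd3 (r = 0.84), Prss23os (r = 0.83) and Colec12 (r = 0.83).

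Selp (chromosome 1, 164115264 to 164150026, plus strand, mm10, protein-coding) was the 1 gene of the 6 that was called higher after bleomycin. Its FPKM was 1.26, 2.66, 3.32, 1.44 and 2.77 in Young Sham and 3.61, 5.31, 3.72 and 7.19 in Young Bleo. The groups did not overlap, although Young Sham 23 (3.32) and Young Bleo 17 (3.61) lay close together. Selp rose by 1.09 on the log2 scale in Young Bleo (SE 0.371, DESeq2 adjusted p = 0.0264), 2.12-fold. edgeR did not call it (adjusted p = 0.0675), and the DESeq2 call was lost without Young Bleo 18, Young Bleo 20, Young Sham 21 or Young Sham 24, with adjusted p from 0.0734 to 0.101.

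In the aged mice Selp was at 1.92, 5.39 and 3.29 FPKM in Aged Sham and at 5.40, 11.3, 4.56 and 4.42 FPKM in Aged Bleo. Aged Bleo 2 was the highest library for Selp, and all 4 Aged Bleo libraries lay above the Young Sham range. Selp rose by 1.54 on the log2 scale in Aged Bleo against Young Sham (SE 0.371, DESeq2 adjusted p = 0.00105, edgeR adjusted p = 0.0215), 2.90-fold, and by 1.06 without Aged Bleo 2 (DESeq2 adjusted p = 0.0382). Against Aged Sham the log2 fold change was 0.77 (95% interval -0.06 to 1.60, DESeq2 adjusted p = 0.313), and without Aged Sham 14 it was 1.22 (DESeq2 adjusted p = 0.0763). In Aged Sham against Young Sham it was 0.77 (DESeq2 adjusted p = 0.369), and without Aged Sham 14 it was 0.31.

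Platelets carry Selp as well, so the platelet markers were read beside it. Their summed FPKM was 295 to 548 in Young Sham, 117 to 267 in Young Bleo and 70.6 to 518 in Aged Bleo. In Aged Sham the sums were 1001, 3573 and 680, and the library with the highest sum, Aged Sham 14, also had the highest Selp of that group. In Aged Sham against Young Sham 6 of 9 platelet markers were called higher by DESeq2 and 1 by edgeR, and in Young Bleo against Young Sham 1 of 9 was called lower by both. In Aged Bleo against Aged Sham 8 of 9 were called lower by DESeq2 and 3 by edgeR, with a median log2 fold change of -2.47. Neither tool called any in Aged Bleo against Young Sham. Their part in the values of Selp was not tested in any group.

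Selp is known for its place in venules, and the venous markers were read beside it. The 8 venous markers (Nr2f2, Ephb4, Ackr1, Vwf, Slc6a2, Prss23, Bst1 and Vegfc) summed to 81.6 to 112 FPKM in Young Sham, 115 to 167 in Young Bleo, 87.3 to 175 in Aged Sham and 148 to 177 in Aged Bleo. Against Young Sham, 5 of 8 were called higher in Aged Bleo by both DESeq2 and edgeR, and in Young Bleo 3 by DESeq2 and 1 by edgeR. Ackr1, the chemokine-binding receptor of venules, was at 0.314 to 1.29 FPKM in Young Sham, 7.63 to 11.05 in Young Bleo and 4.19 to 27.8 in Aged Bleo, and Aged Bleo 2 held its highest value as it did for Selp. Ackr1 was singled out after its values were seen, and Vwf and Bst1 of this list also stand in the pathway lists. Markers of other vessels were higher as well. The 8 arterial markers summed to 121 to 201 FPKM in Young Sham, 308 to 519 in Young Bleo and 202 to 521 in Aged Bleo, with 5 of 8 called higher in each injured group against Young Sham by DESeq2 and by edgeR. The 7 lymphatic markers summed to 265 to 364, 681 to 1529 and 317 to 612 FPKM in these groups, with 4 of 7 called higher in Young Bleo (edgeR 3) and 1 in Aged Bleo (edgeR 0). Most of this sum was Ccl21a, at 227 to 322, 643 to 1444 and 263 to 568 FPKM, which was singled out after its values were seen. The part of venous, arterial and lymphatic cells in the Selp difference was not tested.

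The genes most like Selp over the 16 libraries were Gm16587 (r = 0.91), Bhlhe40 (r = 0.85), a basic helix-loop-helix repressor, and Vwf (r = 0.85), which encodes von Willebrand factor, the main cargo of the Weibel-Palade body in which P-selectin is kept. Gm16587 is an antisense gene that lies inside Selp, with 14 to 253 counts per library. The strand setting of the counting is not stated, so reads from the pair cannot be told apart. The same holds for Gm16548, which overlaps the 3′ end of Selp (46 to 804 counts).

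Sele (chromosome 1, 164048234 to 164057677, plus strand, mm10, protein-coding) lies next to Selp on the chromosome and marks acutely activated endothelium. Its FPKM was 0.625, 0.550, 1.50, 0.288 and 1.24 in Young Sham, 0.496, 0.533, 0.310 and 1.01 in Young Bleo, 0.489, 0.448 and 0.712 in Aged Sham, and 0.606, 2.04, 1.02 and 0.365 in Aged Bleo. The 4 groups overlapped, and the spread within a group was wide, with a CV of normalized counts of 59.4% in Young Sham and 78.5% in Aged Bleo. No comparison passed the test, and the intervals were wide: the log2 fold change was -0.55 in Young Bleo (95% interval -1.56 to 0.45) and 0.31 in Aged Bleo (-0.69 to 1.31) against Young Sham. The first interval includes a 2-fold fall and the second a 2-fold rise. The genes most like Sele were Prrc1 (r = 0.78), Zfp280b (r = 0.72) and Me2 (r = 0.71), the lowest likeness found for any of the 6 genes.

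The ratio of Selp to Sele FPKM within a library was 2.02 to 4.98 in Young Sham (median 2.23), 7.11 to 12.0 in Young Bleo (median 8.62), 3.93 to 12.1 in Aged Sham (median 4.62) and 4.49 to 12.1 in Aged Bleo (median 7.24). Every Young Bleo library lay above every Young Sham library, and the Aged Bleo range overlapped both sham ranges.

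Cd34 (chromosome 1, 194938819 to 194961279, plus strand, mm10, protein-coding) is a sialomucin that ECs carry throughout the capillary bed and that binds L-selectin once it is suitably sulphated. Its FPKM was 85.4, 83.7, 77.7, 90.7 and 90.1 in Young Sham and 88.4, 96.7, 98.7 and 118 in Young Bleo. It was 63.6, 88.1 and 83.1 in Aged Sham, and 76.2, 71.1, 74.8 and 62.7 in Aged Bleo. The range over all 16 libraries was 1.88-fold, the narrowest of the 6 genes, against 7.63-fold for Icam1 and 8.98-fold for Selp. Every Aged Bleo library lay below every Young Bleo library. The log2 fold change between these groups was -0.46 (SE 0.124, DESeq2 adjusted p = 0.0279, edgeR adjusted p = 0.270), 1.37-fold lower, which is under the fold threshold, so Cd34 was not called. It passed both thresholds without Young Bleo 17 (-0.51) and missed the p threshold without Young Bleo 20 (DESeq2 adjusted p = 0.0639) or without Aged Bleo 5 (DESeq2 adjusted p = 0.140).

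Fibroblasts can also carry Cd34, and the sum of 8 fibroblast markers was 35.0 to 41.6 FPKM in Young Bleo and 8.49 to 21.3 FPKM in Aged Bleo, with 2 of 8 called lower by DESeq2 and 0 by edgeR. Their part in the Cd34 difference was not tested. Against Young Sham the log2 fold change of Cd34 was 0.20 in Young Bleo (DESeq2 adjusted p = 0.268) and -0.26 in Aged Bleo (DESeq2 adjusted p = 0.153). The genes most like Cd34 were Hoxd8 (r = 0.83), Ywhaq (r = 0.81) and Gm15387 (r = 0.81). An antisense gene, Gm16897, overlaps the end of Cd34 with 923 to 2927 counts, against 27041 to 104589 for Cd34.

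**Figure D5:**
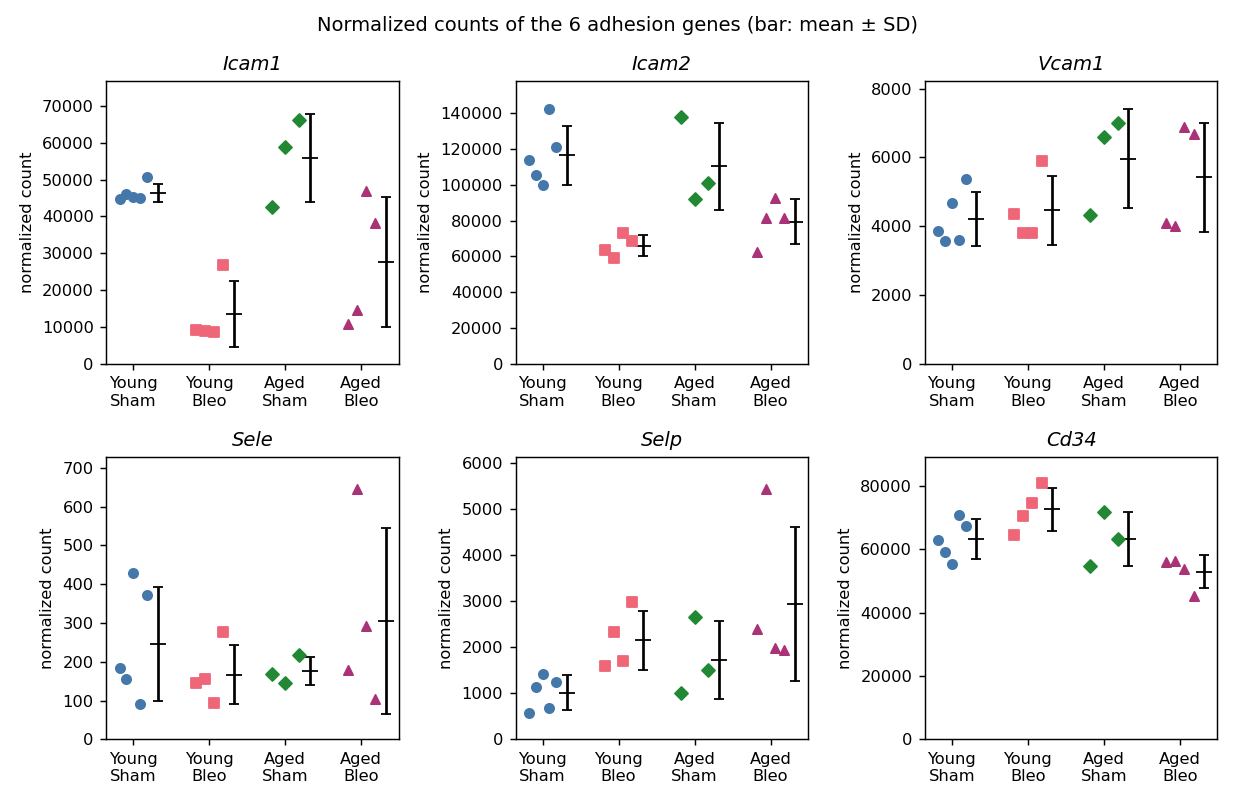
Normalized counts of each of the 6 genes, with 1 point per library in the 4 groups and black bars for the mean ± SD (n = 5, 4, 3 and 4). Icam1 in Young Bleo (mean 13411) and Aged Bleo (mean 27629) is spread far more widely than in Young Sham (mean 46345), and Selp in Aged Bleo is drawn up by 1 library at 5440.

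The genes around these 6 in the adhesion pathway were read from 6 lists. The counts called in each list stand beside the DESeq2 shares over all genes. Against Young Sham these were 14.1% in Young Bleo, 9.59% in Aged Bleo and 3.29% in Aged Sham. For Aged Bleo they were 5.77% against Aged Sham and 1.02% against Young Bleo, and 0.382% in the interaction. The lists were not tested against these shares. Among 17 other endothelial adhesion molecules and enzymes that build selectin ligands, 16 were tested, and 3 were called higher and 3 lower in Young Bleo against Young Sham (edgeR 2 and 1), with a median log2 fold change of 0.18. Chst2, a sulphotransferase that prepares ligands for L-selectin, fell by 2.28 on the log2 scale (SE 0.628, DESeq2 adjusted p = 0.00387, edgeR adjusted p = 0.0271). Icam4, a further member of the Icam family, fell by 0.98 (DESeq2 adjusted p = 0.0199), and B3gnt3, which extends selectin-ligand sugars, rose by 0.98 (DESeq2 adjusted p = 0.0453), neither of them called by edgeR. Aged Bleo against Young Sham had 1 called higher and 1 lower (median 0.09). The lower gene was Stab1, a scavenger receptor, at -0.53 (DESeq2 adjusted p = 0.0450). Between the injured groups 1 of 16 was called, Emcn, a capillary and venous sialomucin, which fell by 0.80 (DESeq2 adjusted p = 0.00345, edgeR adjusted p = 0.122). None was called in Aged Sham against Young Sham or in Aged Bleo against Aged Sham by DESeq2 or edgeR, where 4 and 3 had an unadjusted p under 0.05 by DESeq2.

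Of the 13 transmigration molecules of the cell border, 12 were matched in the table. In Young Bleo against Young Sham 1 was higher and 1 lower (median 0.18). Jam2, a junctional molecule of venous and lymphatic ECs, rose by 2.05 on the log2 scale (SE 0.337, edgeR adjusted p = 0.00241), and Cd47, which signals to leukocytes through thrombospondin and SIRP-alpha, fell by 1.32 (SE 0.165, edgeR adjusted p = 0.000878). Against Young Sham, Aged Bleo had 3 higher and 1 lower (median -0.12), with the same counts by edgeR. Jam2 rose by 1.68 (edgeR adjusted p = 0.00812), Pvr, a nectin-like receptor, by 1.25 (edgeR adjusted p = 0.0432) and Bst1, an ectoenzyme, by 1.05 (edgeR adjusted p = 0.00808). Pvr was at 540 to 2373 normalized counts in Aged Bleo and overlapped Young Sham (365 to 787). Bst1 also rose in Aged Sham against Young Sham, by 0.81 (DESeq2 adjusted p = 0.0130, edgeR adjusted p = 0.107), the 1 call of this list there. In Aged Bleo against Aged Sham 3 were higher and 1 lower, the last being Cd47, which fell by 0.91 (edgeR adjusted p = 0.0444), and in Aged Bleo against Young Bleo 2 were higher and 1 lower, with none called by edgeR.

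The 17 docking-structure partners anchor Icam1 and Vcam1 to the actin cytoskeleton or gather them in the membrane. In Young Bleo against Young Sham 3 were higher and 2 lower (edgeR 2 and 2, median -0.03). Cd81, a tetraspanin, rose by 1.12 on the log2 scale (edgeR adjusted p = 0.00181), and Vcl, which encodes vinculin, fell by 1.34 (edgeR adjusted p = 0.00867). The aged injured group had 3 higher and 2 lower against Young Sham (edgeR 2 and 0, median 0.02), with Vcl at -0.85 (DESeq2 adjusted p = 0.0286, edgeR adjusted p = 0.0872). In the test of the aged against the young bleomycin response 1 of the 17 was called by DESeq2, Cd81 at -1.31 (DESeq2 adjusted p = 0.00475), and edgeR did not call it (adjusted p = 0.281). In Aged Bleo against Aged Sham 2 were higher and 1 lower, in Aged Bleo against Young Bleo 1 was lower, and edgeR called none in either. None was called in Aged Sham against Young Sham by DESeq2 or edgeR, where 4 had an unadjusted p under 0.05 by either tool.

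Of the 15 genes of shedding enzymes and of the Weibel-Palade body, the store of P-selectin, 1 was higher in Young Bleo (median 0.20) and 4 were higher in Aged Bleo (median 0.22) against Young Sham, with the same counts by edgeR and none lower. Cd63, a membrane protein of the Weibel-Palade body that holds P-selectin at the surface, rose by 1.45 on the log2 scale in Young Bleo (edgeR adjusted p = 0.0151) and by 1.39 in Aged Bleo (edgeR adjusted p = 0.0255). Rab27a, a GTPase of these bodies, was higher by 0.88 in Aged Bleo than in Young Sham (edgeR adjusted p = 0.0135), and Vwf by 0.83 (edgeR adjusted p = 0.0393). Vwf had a mean of 29284 normalized counts in Young Sham and 44901 in Young Bleo. Its Aged Sham mean was 44635 and its Aged Bleo mean was 51965. None was called by DESeq2 or edgeR in the comparisons of Aged Sham with Young Sham, Aged Bleo with Aged Sham or Aged Bleo with Young Bleo, where 2, 5 and 1 had an unadjusted p under 0.05 by DESeq2.

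Of 24 cytokine receptors and members of the NF-kB and Stat6 routes that induce adhesion molecules, 3 were higher and 3 lower in Young Bleo (edgeR 3 and 2, median -0.03) and 3 higher and 1 lower in Aged Bleo (the same by edgeR, median 0.10) against Young Sham. Tnfrsf1b, a TNF receptor, rose by 1.66 on the log2 scale in Young Bleo (edgeR adjusted p = 0.00937) and by 1.74 in Aged Bleo (edgeR adjusted p = 0.0108). Ifngr2, a chain of the interferon-gamma receptor, fell by 1.13 in Young Bleo (edgeR adjusted p = 0.00330), and Il1rap, the IL-1 receptor accessory chain, fell by 1.61 (DESeq2 adjusted p = 0.0112, edgeR adjusted p = 0.0656). Il13ra1 rose by 1.10 and Ifngr1 by 1.05 in Aged Bleo (edgeR adjusted p = 0.0265 and 0.0466). Ifngr1 was widely spread in Aged Bleo, at 13787 to 45437 normalized counts, and overlapped Young Sham (12237 to 14020). In Aged Bleo against Aged Sham 2 were higher and 1 lower by DESeq2, the lower gene being the NF-kB inhibitor Nfkbia, which fell by 0.59 (DESeq2 adjusted p = 0.0238), and edgeR called none of the 3. Nfkb1 was the 1 call of this list in Aged Sham against Young Sham and fell by 0.51 (DESeq2 adjusted p = 0.0334, edgeR adjusted p = 0.120), and neither tool made a call in Aged Bleo against Young Bleo, where 2 had an unadjusted p under 0.05 by DESeq2.

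The 11 leukocyte counter-receptors are the partners of these adhesion molecules on white blood cells, and the sort removed CD45+ cells. In Young Bleo against Young Sham 2 were higher and 3 lower (edgeR 2 and 1, median -0.07), and in Aged Bleo against Young Sham 4 were higher and 1 lower (edgeR 3 and 1, median 0.18). In Aged Sham against Young Sham 1 was higher and 1 lower (edgeR 0 and 1, median 0.54). Selplg, the P-selectin ligand, rose by 3.30 on the log2 scale in Aged Bleo against Young Sham (edgeR adjusted p = 0.00182), from a mean of 77.1 to a mean of 753 normalized counts. Itgax, an integrin chain of myeloid cells, rose by 3.55 in Young Bleo and by 4.38 in Aged Bleo (edgeR adjusted p = 0.0306 and 0.0178). Itga4, the chain of VLA-4 that binds Vcam1, fell by 3.11 in Young Bleo and by 2.62 in Aged Bleo (edgeR adjusted p = 0.00279 and 0.00728), and was the lower gene in Aged Sham, where it fell by 2.60 (edgeR adjusted p = 0.0415), from a Young Sham mean of 224 normalized counts. The leukocyte markers rose in the same comparisons, 7 of 12 in Young Bleo, 10 of 12 in Aged Bleo and 6 of 12 in Aged Sham against Young Sham (edgeR 5, 9 and 0), and their part in these values was not tested. In the other 2 comparisons 1 counter-receptor was called, Selplg, which was higher in Aged Bleo than in Aged Sham (2.32) and than in Young Bleo (2.26), without a call by edgeR. In the test of the aged against the young bleomycin response 1 of the 11 was called by DESeq2, Itga4 at 3.10 (DESeq2 adjusted p = 0.0119, edgeR adjusted p = 0.336).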

How the data were processed

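RNA from sorted lung ECs was sequenced in 16 libraries. Per the labels and the study's methods, the authors used STAR (2.5.2b) for alignment to mm10 and featureCounts of Subread for gene counts. Labels and methods name different library kits. The gene annotation's release, use of strand and handling of multi-mapped reads are not given in the sources used here. The deposited table holds raw counts and FPKM values. The library totals behind the deposited FPKM exceed the summed counts, which were 40.2% to 44.7% of them. Levels between genes were compared as FPKM and groups were compared on the counts. Columns were matched to libraries by the number in their names.

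All 16 libraries entered 1 DESeq2 model (version 1.42.0, R 4.3.3) with group as its term, Wald tests, unshrunken fold changes and independent filtering, as DESeq2 is the tool the study's methods name. Benjamini-Hochberg adjustment ran over all genes tested. A called gene had an adjusted p of 0.05 or lower and a log2 fold change of at least 0.5. There were 5 comparisons between groups and 1 interaction. Alternatives were edgeR's quasi-likelihood test (4.0.16), limma voom (3.58.1), DESeq2 with TMM factors, no independent filtering, limma-trend on log2(FPKM + 0.1) and log2(FPKM + 1) with a mean FPKM of at least 0.1, fits of the 2 groups alone, and leaving out each library. The fits were tested on simulated data, where DESeq2 made more false calls than edgeR, so edgeR's adjusted p stands beside the calls.

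The members, gene lists and tests were chosen with earlier results of these data known. Named genes were the 6 members and, per list and comparison, up to 3 called genes with the largest fold change and a mean normalized count of at least 50; a gene that this rule selects is not reported here. Of the listed genes 1 (Cd99) had no match in the table. Likeness is Pearson's r of log2(normalized count + 1). Intervals are 95% Wald intervals. Summed marker levels are sums of deposited FPKM. Replicates were compared in pairs and differed by more than sampling noise. Proteins and single-cell data were not analysed here.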

Additional observations from a re-analysis of the deposited data

Results flagged for a closer look

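In 18 sets of 4 or 5 libraries (each of the 6 genes in Young Sham, Young Bleo and Aged Bleo) 3 libraries lay further from the rest of their group than Dixon's criterion allows, and chance alone flags about 1 in 20 such sets. Icam1 in Young Bleo 20 was at 26832 normalized counts, where the other 3 Young Bleo libraries lay between 8593 and 9216. Selp in Aged Bleo 2 was at 5440 normalized counts, where the next library lay at 2406. Icam1 in Young Sham 25 was at 50733 normalized counts, where the next library lay at 46180, a narrow group in which the CV was 5.44%. Aged Sham, with 3 libraries, was not tested.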

How the results depend on the processing

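Of 822 values of the 6 genes recomputed under the alternatives, 792 kept their direction and their side of the threshold, 9 lost the call, 6 gained it and 15 changed sign. Each change of sign came with 1 library left out, in values not called with or without it. With 1 library left out, the log2 fold change ran from -0.27 to 0.037 for Icam2 and from -0.10 to 0.10 for Cd34 in Aged Sham against Young Sham, from -0.078 (without Young Bleo 20) to 0.19 for Vcam1 in Young Bleo and from -0.36 (without Aged Bleo 2) to 0.60 for Sele in Aged Bleo against Young Sham, from -0.032 (without Aged Bleo 2) to 0.64 for Selp in Aged Bleo against Young Bleo, and from -0.80 to 0.14 (without Aged Sham 14) for Selp in the interaction. Icam1 and Icam2 in Young Bleo against Young Sham, and Selp in Aged Bleo against Young Sham, were called under every alternative run. Selp in Young Bleo against Young Sham was not called by edgeR (adjusted p = 0.0675), limma voom (adjusted p = 0.0532) or limma-trend on log2(FPKM + 1) (adjusted p = 0.0600). With 1 library left out at a time, the number of the 6 genes called ranged from 2 to 3 in Young Bleo against Young Sham, from 1 (without Aged Bleo 1 or Young Sham 24) to 3 (without Aged Bleo 3) in Aged Bleo against Young Sham, from 0 to 2 (2 without Aged Bleo 3, 1 without Aged Sham 14) in Aged Bleo against Aged Sham, and from 0 to 1 (without Young Bleo 17 or 20) in Aged Bleo against Young Bleo. It stayed at 0 in Aged Sham against Young Sham and in the interaction.

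Over all genes the tools differed in number. Aged Sham against Young Sham gave 617 genes by DESeq2, 158 by edgeR, 104 by limma voom, and 139 and 159 on FPKM with pseudocounts of 0.1 and 1. Young Bleo against Young Sham gave 2579, 1793, 1736, 1990 and 1478. Aged Bleo against Young Sham gave 1797, 1043, 1120, 1141 and 892. Aged Bleo against Aged Sham gave 1081, 146, 53, 369 and 279, and 653 with DESeq2 on those 2 groups alone. Aged Bleo against Young Bleo gave 191, 8, 29, 32 and 54, and the interaction 77, 1, 1, 0 and 3 (1590 genes at an unadjusted p under 0.05 by DESeq2). On FPKM (pseudocount 0.1) the median of all genes was shifted by -0.12 in Aged Sham against Young Sham and by 0.12 in Aged Bleo against Aged Sham, and in the last comparison 290 genes were higher and 79 lower, against 629 and 452 by DESeq2. The cause was not tested. No paired analysis was possible because the replicate numbers in the labels do not repeat between groups. Precision is limited by 3 to 5 libraries a group, and for Sele also by its 77 to 876 counts.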
